A study of Mus musculus with 9 samples.

Results

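Coagulation and fibrinolysis genes were followed in the colon of wild-type mice: F3, Tfpi, F2r, Thbd, F13a1, Vwf, Plat, Plau and Plaur. These 9 genes were chosen by symbol and matched through their Ensembl identifiers, against 22262 genes counted in at least 1 library. Upper colon pieces came from 9 wild-type female C57BL/6N mice, adult at collection and kept in their environment from weaning. The WT_SE group held mice 1, 2, 3 and 5 in the standard environment, in small groups in standard cages. The WT_EE group held mice 1 to 5 in the environment that the labels call enhanced and the design text enriched, co-housed in a large cage with running wheels, tunnels and objects that were moved regularly. All 9 mice were wild type, and the sources name no treatment besides housing. Cage mates share a cage, the labels do not tie mice to cages, and housing density differed together with enrichment, so these cannot be told apart. All p-values given here treat the mice as independent and do not account for shared cages. The comparison asked how long-term housing in an enriched environment changes gene expression in the colon.

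Clotting starts when tissue factor, a membrane protein that is kept apart from the blood, binds a circulating clotting factor and thrombin is formed. Thrombin turns fibrinogen into fibrin and also signals to cells through protease-activated receptors, while thrombomodulin on endothelium redirects it towards an anticoagulant pathway. Factor XIII cross-links fibrin, von Willebrand factor tethers platelets, and plasminogen activators turn plasminogen into plasmin, which dissolves fibrin. In the gut wall these genes belong to several cell types, among them epithelium, endothelium, connective tissue cells and resident macrophages, so that their levels in a whole piece of colon depend on its makeup. In such bulk tissue, fewer cells of a type and less RNA per cell cannot be told apart.

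All 9 genes had counts and all 9 passed the filter on low counts, which kept 17441 genes. At an unadjusted p-value under 0.05 by edgeR's quasi-likelihood test, F2r, Plau, Plat and F3 were higher in WT_EE and F13a1 was lower, which is 5 of 9 genes or 55.6%. Over all genes tested, 7.65% were called in either direction, 4.31% as higher and 3.34% as lower in WT_EE. After Benjamini-Hochberg adjustment over all genes tested, 0.0401% of genes and 0 of the 9 genes were called, and the smallest adjusted p-value of the 9 by edgeR was 0.163. The median log2 fold change of the 9 genes was 0.45 and that of all genes tested was 0.01. The study's own pathway result for these same libraries named F13a1, F2r, Plat and Plau, so the calls of these 4 genes are not independent evidence. These are sparse counts: the 9 genes together had 878 counts over 9 libraries.

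**Figure D1:**
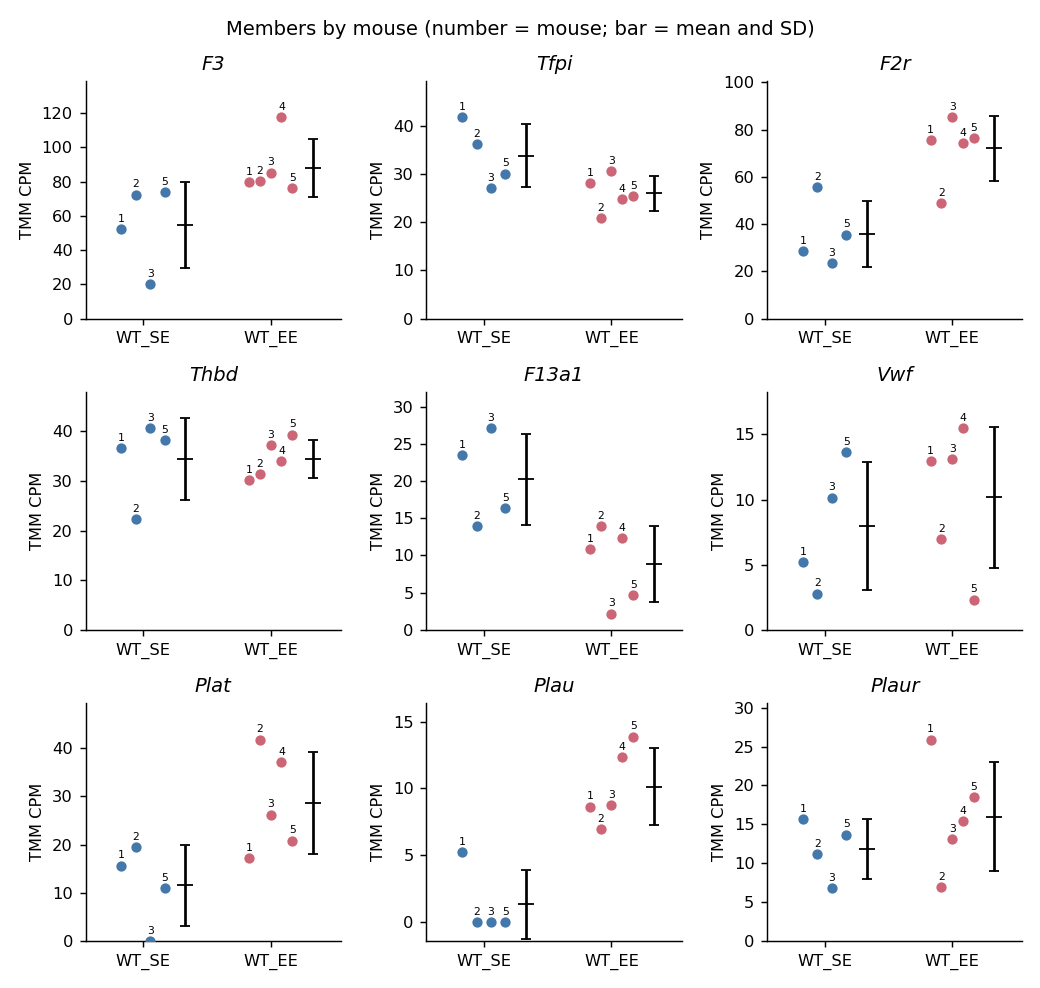
Normalized level of each gene in every mouse, in TMM-normalized CPM (counts scaled to library size) on the y axis, with WT_SE on the left and WT_EE on the right of each panel. Points are mice, labelled with their number, and black bars give the mean and SD. All WT_EE points lie above all WT_SE points for F3 and Plau, while F2r and Plat overlap and the groups touch for F13a1.

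Library totals lay between 299062 and 383401 counts in WT_SE and between 295535 and 454043 in WT_EE. Genes of 2 to 10 and of 10 to 40 mean counts, the ranges that hold all 9 genes, rose faster than library total (slopes of log summed counts on log total of 1.29 and 1.32), and the part of this in the results was not tested. A level of 3 counts, the upper limit that a count of 0 allows, corresponds to 6.61 to 10.2 CPM. These limits and all counting intervals cover counting error only. The libraries also differed in ways that the labels do not name. Counts of Slc10a2, an ileal bile acid transporter used here as a mark of position along the colon, ran from 16 to 110 in WT_SE and from 3 to 117 in WT_EE. Hoxb13, a gene of the posterior gut, had 4, 0, 0 and 56 counts in WT_SE mice 1, 2, 3 and 5 and 0, 45, 21, 24 and 20 counts in WT_EE mice 1 to 5. It was thus above 4 counts in 1 of 4 WT_SE and 4 of 5 WT_EE mice, and its part in the results was not tested. Counts of Adipoq, a fat cell gene, reached 70 in WT_SE mouse 1 and were between 0 and 29 in the other 8 mice. The library names of WT_SE mice 1 and 3 end in L3 and those of the other 7 mice in L2, a difference whose meaning the labels do not give.

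Promoter windows from RefSeq on GRCm38.p6, from 250 bases before to 50 bases after a start site, were found for 5 of the 9 genes, in 7 windows. The motifs searched on both strands were the cyclic AMP response element TGACGTCA, the AP-1 element TGAGTCA or TGACTCA (each is the other's reverse complement), the GC box GGGCGG and the TATA element TATAAA. The windows of F3 and F2r and 1 of the 2 windows of F13a1 are printed because these genes were called in opposite directions, and that of Plaur because it is the receptor of Plau and was not called. Letters in capitals mark a motif on either strand, each sequence runs 5′ to 3′ on the strand of its gene, and neighbouring GC boxes overlap in Plaur.
F3 (chr3:121723287-121723586, plus strand): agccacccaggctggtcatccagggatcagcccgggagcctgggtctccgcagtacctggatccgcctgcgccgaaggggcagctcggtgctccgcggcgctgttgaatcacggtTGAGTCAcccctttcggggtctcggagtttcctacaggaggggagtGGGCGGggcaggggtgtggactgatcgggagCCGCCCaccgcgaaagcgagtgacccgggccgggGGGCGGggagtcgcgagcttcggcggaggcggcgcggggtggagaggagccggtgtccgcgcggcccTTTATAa
F2r (chr13:95618417-95618716, minus strand): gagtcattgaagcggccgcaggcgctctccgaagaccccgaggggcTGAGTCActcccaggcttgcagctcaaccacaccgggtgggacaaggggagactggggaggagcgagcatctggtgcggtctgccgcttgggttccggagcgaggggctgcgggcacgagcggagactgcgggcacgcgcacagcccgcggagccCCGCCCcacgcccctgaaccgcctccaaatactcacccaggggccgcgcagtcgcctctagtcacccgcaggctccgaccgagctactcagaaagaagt
Plaur (chr7:24462233-24462532, plus strand): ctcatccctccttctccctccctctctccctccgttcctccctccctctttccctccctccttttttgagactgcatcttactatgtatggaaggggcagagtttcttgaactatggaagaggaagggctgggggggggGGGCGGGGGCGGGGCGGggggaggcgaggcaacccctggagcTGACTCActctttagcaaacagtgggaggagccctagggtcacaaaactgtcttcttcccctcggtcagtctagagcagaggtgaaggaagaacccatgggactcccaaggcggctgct
F13a1 (chr13:37050195-37050494, minus strand): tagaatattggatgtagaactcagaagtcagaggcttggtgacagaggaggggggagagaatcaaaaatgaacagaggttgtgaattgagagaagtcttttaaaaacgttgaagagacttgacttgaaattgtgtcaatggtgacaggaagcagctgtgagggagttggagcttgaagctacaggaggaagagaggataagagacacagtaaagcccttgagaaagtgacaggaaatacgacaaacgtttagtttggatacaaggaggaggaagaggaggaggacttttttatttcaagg
An AP-1 element was present in the windows of F3, F2r and Plaur, with its first base at -135, -204 and -69 from the start site. Of all 32851 windows of this length, 5.2% held an AP-1 element. GC boxes were present in the windows of F3, F2r, Plaur and Tfpi, against 35.7% of all windows. A TATAAA was found in F3, with its first base at 44, and in 1 of 2 windows of Tfpi, at -127, against 13.6%. Both lie on the strand opposite to the gene, and that of F3 lies after the start site. No window of these genes held TGACGTCA, which 1.79% of all windows held. Neither F13a1 window held any of these letters. A match is a description of the sequence and no measure of binding.

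F3 encodes tissue factor, the initiator of clotting, and lies on chromosome 3 at 121723537 to 121735048 in GRCm38 (ENSMUSG00000028128). The 3′ libraries give a molecule about 1 tag whatever its length, so levels were not corrected for gene length. Counts did not rise in proportion to library total, however. The slopes were 1.29 and 1.32 in the ranges of the 9 genes and 0.426 at 100 to 150 mean counts. Levels set side by side between genes are therefore approximate. F3 had the highest mean level of the 9 genes. The normalized level in WT_SE was 52.2, 72.4, 20.3 and 73.8 CPM in mice 1, 2, 3 and 5, and in WT_EE 79.9, 80.2, 85.2, 118 and 76.4 CPM in mice 1 to 5. WT_SE mouse 3 was far below the others, and every WT_EE mouse was above every WT_SE mouse, although the nearest values were 73.8 and 76.4 CPM. Over all genes tested, 1.38% had all WT_EE mice above all WT_SE mice and 1.2% all below. WT_SE mice averaged 54.7 ± 25 CPM (SD, n = 4) and WT_EE mice 87.8 ± 16.9 CPM (SD, n = 5). F3 rose by a log2 fold change of 0.64 with an SE of 0.25 (edgeR unadjusted p = 0.0134, adjusted p = 0.46), and the two-sided exact permutation p was 0.00794, the smallest that 4 against 5 mice can give. Without WT_SE mouse 3 the log2 fold change was 0.41 and its edgeR unadjusted p was 0.0826. Within the 7 libraries with names ending in L2 it was 0.26, with an edgeR unadjusted p of 0.31.

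Tfpi encodes the tissue factor pathway inhibitor, which blocks the step that F3 starts, and lies on chromosome 2 at 84432855 to 84476775 (ENSMUSG00000027082). Its level was 41.8, 36.2, 27.1 and 30.1 CPM in WT_SE mice 1, 2, 3 and 5 and 28.1, 20.9, 30.6, 24.7 and 25.4 CPM in WT_EE mice 1 to 5. The groups overlapped, with 3 of 5 WT_EE mice below the lowest WT_SE mouse. The log2 fold change was -0.37 with an approximate 95% interval of -0.96 to 0.23 (edgeR unadjusted p = 0.237, adjusted p = 0.819), and the exact permutation p was 0.0556.

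F2r encodes the main thrombin receptor of the protease-activated receptor family and lies on chromosome 13 at 95601803 to 95618487 (ENSMUSG00000048376). Its level was 28.7, 55.7, 23.7 and 35.5 CPM in WT_SE mice 1, 2, 3 and 5. In WT_EE mice 1 to 5 it was 75.6, 48.8, 85.2, 74.2 and 76.4 CPM. Of the WT_EE mice, 4 of 5 lay above the highest WT_SE mouse, and WT_EE mouse 2 lay below WT_SE mouse 2. WT_SE mice averaged 35.9 ± 14.1 CPM (SD, n = 4) and WT_EE mice 72 ± 13.7 CPM (SD, n = 5). Its log2 fold change of 1.01 (SE 0.26) had the smallest p-value of the 9 genes (edgeR unadjusted p = 0.000429, adjusted p = 0.163), and the exact permutation p was 0.0238. The unadjusted call held in every alternative setting tried, with log2 fold changes from 0.68 to 1.3. Within the L2 libraries the log2 fold change was 0.69, with an edgeR unadjusted p of 0.0299. The adjusted p of F2r by edgeR was 0.0254 without the filter on low counts and 0.0394 without WT_SE mouse 2, the highest WT_SE mouse for this gene. With the mouse number as a block it was also under 0.05. In all other settings tried, among them the L2 libraries alone, the adjusted p of F2r was not under 0.05.

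Thbd encodes thrombomodulin, the endothelial cofactor through which thrombin activates protein C, and lies on chromosome 2 at 148404466 to 148408188 (ENSMUSG00000074743). Its level was 36.5, 22.3, 40.6 and 38.3 CPM in WT_SE mice 1, 2, 3 and 5 and 30.2, 31.4, 37.2, 34 and 39.3 CPM in WT_EE mice 1 to 5. Every WT_EE mouse lay inside the range of WT_SE. The log2 fold change was 0.01 with an approximate 95% interval of -0.55 to 0.58 (edgeR unadjusted p = 0.963), and its sign changed with the setting.

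F13a1 encodes the catalytic A subunit of factor XIII, which cross-links fibrin and is made by tissue macrophages and by the precursors of platelets. It lies on chromosome 13 at 36867178 to 37050244 (ENSMUSG00000039109). The annotation places Gm49144 and Gm30489 on the opposite strand within it, and these had 2 and 0 counts in all 9 libraries. F13a1 had 9, 5, 8 and 6 counts in WT_SE mice 1, 2, 3 and 5 and 5, 4, 1, 4 and 2 counts in WT_EE mice 1 to 5. In normalized CPM the lowest WT_SE mouse (13.92) and the highest WT_EE mouse (13.94) met, and the other 4 WT_EE mice were lower. WT_SE mice averaged 20.2 ± 6.1 CPM (SD, n = 4) and WT_EE mice 8.78 ± 5.11 CPM (SD, n = 5). The fitted log2 fold change was -1.25 with an SE of 0.49 (edgeR unadjusted p = 0.0149, adjusted p = 0.472), with an exact permutation p of 0.0238. Within the L2 libraries it was -0.84, with an edgeR unadjusted p of 0.204. Without WT_EE mouse 3, which had a single count, it was -0.97, with an edgeR unadjusted p of 0.0572.

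Vwf encodes von Willebrand factor, an endothelial and platelet protein that carries factor VIII and tethers platelets. It lies on chromosome 6 at 125546774 to 125686679 (ENSMUSG00000001930). It had 2, 1, 3 and 5 counts in WT_SE mice 1, 2, 3 and 5 and 6, 2, 6, 5 and 1 counts in WT_EE mice 1 to 5, so that 5 of 9 mice were at or under 3 counts. The ranges of the groups overlapped almost fully. The ratio of pooled counts per library total, WT_EE over WT_SE, was 1.31 with an exact 95% counting interval of 0.597 to 3.02, so that a difference was not detectable at this depth.

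Plat encodes tissue plasminogen activator, which activates plasminogen on fibrin, and lies on chromosome 8 at 22757727 to 22782844 (ENSMUSG00000031538). It had 6, 7, 0 and 4 counts in WT_SE mice 1, 2, 3 and 5 and 8, 12, 12, 12 and 9 counts in WT_EE mice 1 to 5. In normalized level WT_EE mouse 1, at 17.3 CPM, lay below WT_SE mouse 2, at 19.5 CPM, and the other 4 WT_EE mice lay above all WT_SE mice. WT_SE mice averaged 11.5 ± 8.44 CPM (SD, n = 4) and WT_EE mice 28.7 ± 10.5 CPM (SD, n = 5). The fitted log2 fold change was 1.17 with an SE of 0.45 (edgeR unadjusted p = 0.0133, adjusted p = 0.46), with an exact permutation p of 0.0397. Without WT_SE mouse 3, which had 0 counts, it was 0.84, with an edgeR unadjusted p of 0.0524. Within the L2 libraries it was 0.85, with an edgeR unadjusted p of 0.089.

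Plau encodes urokinase, the plasminogen activator of cell surfaces and migrating cells, and lies on chromosome 14 at 20836660 to 20843385 (ENSMUSG00000021822). It had 2, 0, 0 and 0 counts in WT_SE mice 1, 2, 3 and 5 and 4, 2, 4, 4 and 6 counts in WT_EE mice 1 to 5. All 4 WT_SE mice and 1 of 5 WT_EE mice were at or under 3 counts, and the normalized levels of the groups did not overlap. Pooled, 2 counts of 1408164 in WT_SE stood against 20 counts of 1957501 in WT_EE, a ratio of 7.19 with an exact 95% counting interval of 1.75 to 63.5. The unadjusted edgeR p was 0.00458 (adjusted p = 0.33) and the exact permutation p 0.00794. Both WT_SE mice among the L2 libraries had 0 Plau counts, as did all WT_SE mice but mouse 1, so the settings without mouse 1 set WT_EE against a group at 0 and carry no information on how stable the call is.

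Plaur encodes the urokinase receptor, which holds Plau at the cell surface, and lies on chromosome 7 at 24462484 to 24475968 (ENSMUSG00000046223). It had 6, 4, 2 and 5 counts in WT_SE mice 1, 2, 3 and 5 and 12, 2, 6, 5 and 8 counts in WT_EE mice 1 to 5. The groups overlapped, and 2 of 5 WT_EE mice lay above the highest WT_SE mouse in normalized level. The log2 fold change was 0.45 with an approximate 95% interval of -0.45 to 1.35 (edgeR unadjusted p = 0.333, adjusted p = 0.863).

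**Figure D2:**
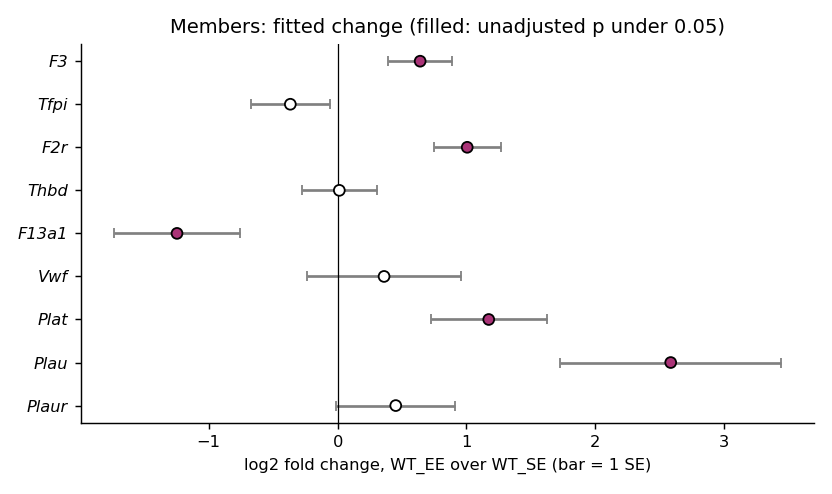
Fitted log2 fold change of each gene, WT_EE over WT_SE, on the x axis, with bars of 1 SE. Filled points had an unadjusted edgeR p under 0.05. F2r, Plau, Plat and F3 lie to the right of 0 and F13a1 to the left, and the bar of Plau, whose WT_SE counts were 0 to 2, is the widest.

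In order of mean level over the 9 mice, F3 stood at 73.1 CPM, F2r at 56 CPM, Thbd at 34.4 CPM, Tfpi at 29.4 CPM and Plat at 21 CPM. Plaur at 14.1 CPM, F13a1 at 13.9 CPM, Vwf at 9.18 CPM and Plau at 6.2 CPM followed. No neighbouring pair kept its order in all 9 mice. F3 was above F2r in 6 of 9 mice, Thbd above Tfpi in 7 of 9 and Plaur above F13a1 in 4 of 9. Some pairs differed in order between the environments: Plaur was above F13a1 in 0 of 4 WT_SE and 4 of 5 WT_EE mice, F2r above Thbd in 1 of 4 and 5 of 5, and Plat above Plaur in 1 of 4 and 4 of 5.

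The other genes of the pathway, listed by role, were tested in the same fit. Of 54 genes, 33 had at most 3 counts in every mouse, including 12 with no count. The filter was passed by 28 genes, some of them among the 33, such as F5 with an SE of 1.01. A change in genes so sparse could hardly be called. Of the 28, 0 were called higher and 0 lower at an unadjusted p under 0.05 by edgeR's quasi-likelihood test, against 7.65% of all genes. In 28 genes such a share is only a few genes, so 0 called does not set the list apart. The median log2 fold change of the 28 was -0.08. Other tools and settings called at most 1 of the 28. Among clotting enzymes and cofactors, the group mainly made by liver, the most abundant was F5, a cofactor of thrombin formation, with 10 counts in all 9 mice. Fga, a fibrinogen chain, had 1 count in all.

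Among anticoagulants Pros1, which encodes the protein C cofactor protein S, was the most abundant, averaging 45.7 ± 12.8 CPM (SD, n = 4) in WT_SE mice and 49.2 ± 13.1 CPM (SD, n = 5) in WT_EE mice. F2rl1, a protease-activated receptor cut by trypsin-like proteases, was more abundant than F2r, at 184 ± 29.5 CPM in WT_SE and 166 ± 23.7 CPM in WT_EE, with a log2 fold change of -0.15 (edgeR unadjusted p = 0.329). Among plasminogen receptors, Anxa2, which encodes the cell-surface plasminogen receptor annexin A2, had a log2 fold change of -0.21 (edgeR unadjusted p = 0.157). Serpine2, a protease inhibitor that blocks thrombin and urokinase, was the most abundant inhibitor of fibrinolysis and had a log2 fold change of 0.05. Mmrn1, a protein of platelets and endothelium that binds factor V, had a log2 fold change of -0.49 (edgeR unadjusted p = 0.0682), with an exact permutation p of 0.0317. Lman1, a cargo receptor for factors V and VIII, had a log2 fold change of 0.15 (edgeR unadjusted p = 0.325).

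Markers of the cell types that could carry these genes were summed in each mouse. The 12 macrophage markers summed to 436 to 540 CPM in WT_SE and 356 to 520 CPM in WT_EE, and 0 of 12 were called in either direction. The 10 endothelial markers summed to 162 to 295 CPM in WT_SE and 246 to 337 CPM in WT_EE, and 1 of 10 was called higher. The 6 fibroblast markers summed to 958 to 1143 CPM and 916 to 1408 CPM, and the 7 epithelial markers to 1949 to 2411 CPM and 2111 to 2734 CPM, with 0 called in both lists. Of 8 smooth muscle markers 3 were called higher in WT_EE, and the sum ran from 1932 to 2504 CPM in WT_SE and from 1945 to 3507 CPM in WT_EE. The 6 platelet markers summed to 20.3 to 33.4 CPM and 10.5 to 37 CPM. Of these Pf4 had 3 to 12 counts in every mouse, Gp1bb, Gp9 and Itga2b were counted as well, and Ppbp and Treml1 were at 0 in all libraries. Adipocyte markers summed to 8.2 to 337 CPM in WT_SE and 9.26 to 112 CPM in WT_EE (1 of 5 lower), and mesothelial markers to 0 to 28.7 CPM and 4.32 to 18.6 CPM (1 of 3 tested lower). Of 4 neutrophil markers only Ly6g had counts, while S100a8, S100a9 and Mpo were at 0 in all libraries. Ly6g alone thus gave neutrophil sums of 0 to 24.6 CPM in WT_SE and 2.16 to 122 CPM in WT_EE (1 of 1 tested higher). The 122 CPM came from WT_EE mouse 2, and the exact permutation p of the sum was 0.603. Red blood cell markers summed to 183 to 304 CPM and 130 to 244 CPM, lymphatic markers to 54.1 to 84.7 CPM and 50.9 to 99 CPM, and hepatocyte markers to 3.38 to 49.6 CPM and 3.49 to 21.6 CPM, with 0 called. The part of the smooth muscle, platelet, mesothelial, neutrophil, red blood cell, lymphatic and hepatocyte markers in the levels of the 9 genes was not tested.

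Each gene was set against the summed list of 1 cell type in which it is known to be expressed. The value was log2 of its CPM plus 1 minus log2 of the summed CPM. No other list was tried for any gene, so makeup by other cell types is not accounted for. Relative to the macrophage list, F13a1 differed by -1.09 (WT_EE minus WT_SE), at -5.64 ± 1.05 (SD, n = 5) against -4.55 ± 0.558 (SD, n = 4) (two-sided exact permutation p = 0.111). Relative to the fibroblast list, F2r differed by 0.95 (exact p = 0.0397). For Plau the exact p was 0.0159, and no size is read from it because 3 of 4 WT_SE mice were at 0 counts, where the pseudocount sets the value. Relative to the endothelial list, Plat differed by 1.52 (exact p = 0.0317), which became 0.68 (exact p = 0.0893) without WT_SE mouse 3. Tfpi differed by -0.66 (exact p = 0.0476), which became -0.46 (exact p = 0.119) with the list level taken as the mean of the log2 values. Relative to the epithelial list, F3 differed by 0.75 (exact p = 0.0476), which became 0.32 (exact p = 0.161) without WT_SE mouse 3. Thbd, Vwf and Plaur had exact p-values of 0.405, 1 and 0.127, and with the mean of the log2 values Plaur differed from the macrophage list by 0.79 (exact p = 0.0476). After Benjamini-Hochberg adjustment over these 9 comparisons the smallest exact permutation value was 0.0857, so 0 of 9 passed.

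Across the 9 mice, 4 relations between a gene and its cell type list were computed. F13a1 and the macrophage list had a Pearson's r of 0.05 (permutation p = 0.893) and a Spearman's rho of 0.03 (permutation p = 0.948), and leaving out the 2 mice whose list level was farthest from the median gave an r of 0.08. Within the 7 L2 libraries r was 0.15. For Vwf with the endothelial list r was 0.37 (permutation p = 0.338) and rho 0.52 (permutation p = 0.162), with r at 0.41 without the 2 farthest mice and at 0.55 within L2. For Thbd with the endothelial list r was -0.09 (permutation p = 0.8) and rho 0 (permutation p = 1), with r at 0.43 both without the 2 farthest mice and within L2. For F2r with the fibroblast list r was -0.19 (permutation p = 0.617) and rho -0.5 (permutation p = 0.178). Without the 2 farthest mice that r was -0.72, and within L2 it was -0.34. The rho of F2r within L2 was -0.79 (permutation p = 0.048, with no adjustment). The Benjamini-Hochberg adjusted permutation p was 0.893 for each r, so none of the 4 relations passed.

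**Figure D3:**
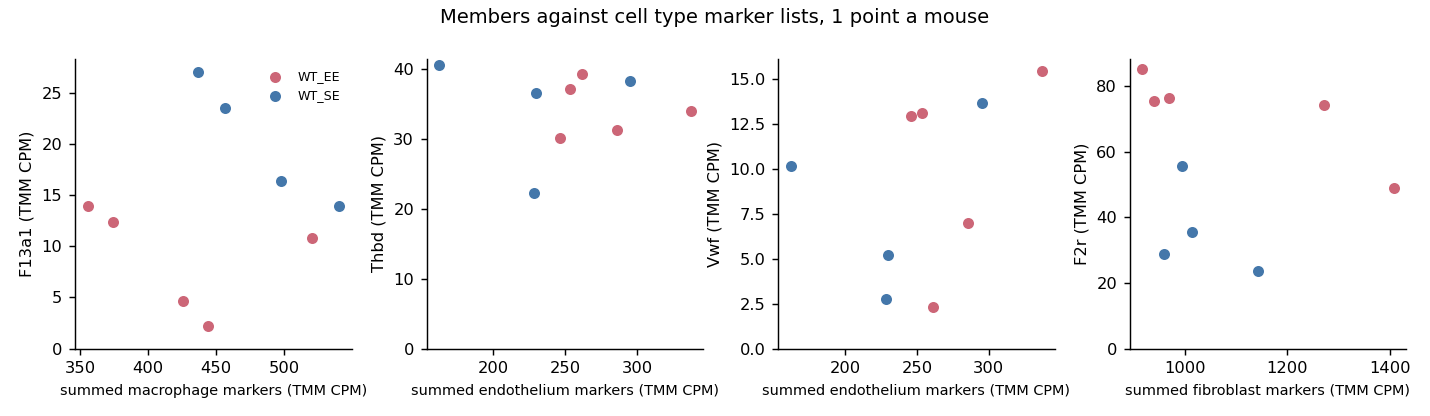
Level of F13a1, Thbd, Vwf and F2r in CPM on the y axis against the summed CPM of the macrophage, endothelial or fibroblast markers on the x axis. Each point is a mouse, coloured by environment. No relation of F13a1 with the macrophage sum was seen, but at 1 to 9 counts a mouse one could be missed. The 4 lowest WT_EE points of F13a1 span macrophage sums from 374 to 520 CPM.

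The library-name ending L3 is carried by 2 of 4 WT_SE mice and 0 of 5 WT_EE mice. With this ending as a covariate F2r had a log2 fold change of 0.68 (edgeR unadjusted p = 0.0308) and Plau was again compared with WT_SE libraries at 0 counts. F13a1, F3 and Plat had log2 fold changes of -0.85, 0.25 and 0.84 and edgeR unadjusted p-values of 0.178, 0.361 and 0.12. With Slc10a2 as a covariate all 5 unadjusted calls were kept, with p-values by edgeR from 0.000145 for F2r to 0.0486 for Plat. With Adipoq as a covariate all 5 were kept as well, from 0.000249 for F2r to 0.0148 for Plat.

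**Figure D4:**
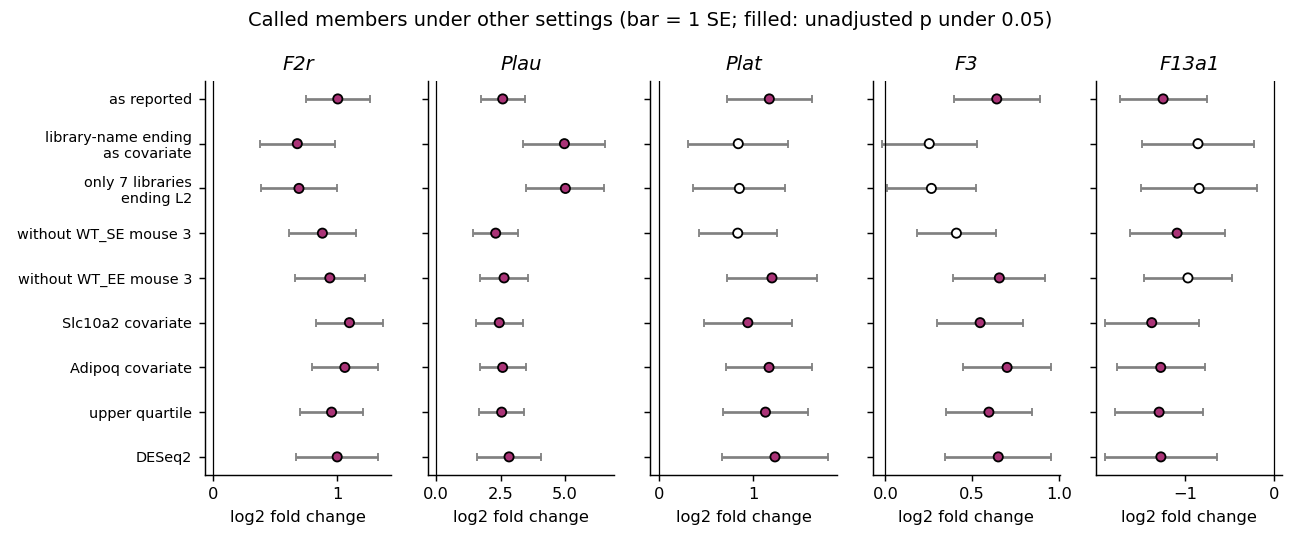
Log2 fold change, WT_EE over WT_SE, of the 5 called genes on the x axis of each panel (scales differ between panels) under 9 settings on the y axis, with bars of 1 SE. Filled points had an unadjusted p under 0.05. F2r is filled in every row shown, and F13a1, F3 and Plat are open in the rows that use the library-name ending. In those rows Plau is compared with WT_SE libraries at 0 counts. F3 and Plat are also open without WT_SE mouse 3, and F13a1 without WT_EE mouse 3.

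For the genes with a mean of at least 20 CPM, the genes most alike in level across the 9 libraries were found by Pearson's r of log2(CPM + 1) among 9474 others, as a description. F3 was closest to Cdh13, Mfsd14a and Hspa12a (r = 0.97, 0.97 and 0.96), and Plat to Phc3, Cpn1 and Ccn2 (r = 0.98, 0.97 and 0.97). F2r was closest to Slc35a2, Yae1d1 and Fbrs (r = 0.95, 0.95 and 0.93). Tfpi was closest to Ermp1, 2810013P06Rik and Gtpbp4 (r = 0.94, 0.93 and 0.91), and Thbd to Gde1, Mien1 and Atp2c2 (r = 0.94, 0.93 and 0.92). At r of at least 0.9 there were 75 genes for F3, 101 for Plat, 13 for F2r, 7 for Thbd and 6 for Tfpi. F3, Plat and F2r were all lowest in WT_SE mouse 3.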

How the data were processed

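The authors sequenced 3′ ends of polyadenylated RNA with Lexogen QuantSeq FWD libraries and deposited, per library, whole-number counts of molecules per gene, not normalized. Per the labels' processing notes the tools were fastp 0.20.0, STAR 2.7.0f, Subread, featureCounts 1.6.0 and UMI-tools, on GRCm38.p6. The study's methods give a different STAR release. The strand setting of the counting is not given in the sources used here. Genes absent from a file were taken as 0 counts. Positions came from GENCODE M21 and promoter windows from RefSeq.

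Counts of the 4 WT_SE and 5 WT_EE libraries were analysed with edgeR 4.0.16 in R 4.3.3, with the study's unadjusted p-value limit of 0.05. A gene entered the fit if any of the libraries reached 4 CPM for it. The study names the same 4 CPM, but its wording can also be read as leaving out genes under 4 CPM in any library. TMM normalization, glmQLFit and glmQLFTest were used, with the environment as the only term, and p-values were adjusted over all 17441 genes tested. Standard errors are the log2 fold change divided by the square root of F. Single values were compared by exact permutation tests, and relations by all orderings of the mice, in scipy 1.17.1 with a pseudocount of 1 on log2 scales. Confidence intervals on pooled counts are exact at 95%. The fit was tested on simulated counts. DESeq2 1.42.0 and limma 3.58.1 served as alternatives.

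The genes and lists were chosen with earlier results of these data known. The rule for named genes takes the 9 genes, pathway genes with an unadjusted p under 0.05 (up to 8), the most abundant pathway gene of each role, and the 3 genes most alike in level to each of the 9 with a mean of at least 20 CPM. Covariates for Slc10a2 and Adipoq, the fit without the libraries of fewest counts, and the fit of equal mouse numbers without a block were added after seeing the data. The labels call the mice separate samples. Replicates differed by more than sampling noise, with a chi-square per degree of freedom of 1.17 to 2.3 within groups. The slope of log summed counts on log library total was 0.426 for genes of 100 to 150 mean counts, above the range of the 9 genes. Some markers lie in that range, such as Krt20 with 98 to 150 counts a mouse. The fibroblast, epithelial and smooth muscle sums were highest in WT_EE mice 2 and 4, at library totals of 295535 and 336967 counts. The smooth muscle sum was 3507 and 3473 CPM there, but 2100 CPM in WT_SE mouse 3, at 299062 counts. The part of library total in these sums, and in comparisons with them, was not tested.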

Additional observations from a re-analysis of the deposited data

Results flagged for a closer look

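Within each environment, the highest and the lowest mouse of the 9 genes and 13 marker sums were compared with the rest of their group, 44 groups in all. A gap that is large for the range of its group marked 4 values, where chance marks about 1 in 20 groups, or 2.2 of 44. F3 was 118 CPM in WT_EE mouse 4, against 76.4 to 85.2 CPM in the other WT_EE mice. Plau was 5.22 CPM (2 counts) in WT_SE mouse 1, against 0 in the other WT_SE mice. The platelet markers summed to 20.3 CPM in WT_SE mouse 3, against 31.3 to 33.4 CPM in the others of its group. The neutrophil markers, of which only Ly6g had counts, summed to 122 CPM in WT_EE mouse 2, against 2.16 to 15.5 CPM in the other WT_EE mice.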

How the results depend on the processing

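The count of genes called at an unadjusted p under 0.05 (1334) was 643 with DESeq2, 804 with filterByExpr, 688 with the ending of the library name as covariate, 680 within the L2 libraries, 410 at an unadjusted p under 0.01 and 857 without the 2 libraries of fewest counts (WT_SE mouse 3 and WT_EE mouse 2). It was 899 to 1581 when each mouse was left out, lowest without WT_SE mouse 3. Under upper quartile normalization 615 genes were higher and 753 lower, against 751 and 583, and the median log2 fold change of all genes was -0.04. Of the 9 genes, 4 were higher, and this became 2 with filterByExpr (which dropped F13a1, Plat, Plau, Plaur and Vwf), with the ending as a covariate, within L2, at an unadjusted p under 0.01 and without the 2 libraries of fewest counts, and 2 to 4 when each mouse was left out. The 1 lower gene became 0 with filterByExpr, the covariate, L2 and the stricter limit, and 0 to 1 when each mouse was left out. The count with an adjusted p under 0.05 (0) was 1 without a filter on low counts and 0 to 1 when each mouse was left out (1 without WT_SE mouse 2), F2r in each case. The exact permutation count (5) was 2 to 5, and the count relative to cell type lists (5 before adjustment) 0 to 3 when each mouse was left out. Pathway genes called (0) were 1 with upper quartile normalization (Mmrn1), with the Slc10a2 covariate (Anxa2) and with mice 1, 2, 3 and 5 without a block (Anxa2), and 0 to 1 when each mouse was left out. The log2 fold change of Thbd turned to -0.017 with the Slc10a2 covariate and -0.035 with upper quartile normalization, and ranged from -0.14 to 0.10 when each mouse was left out. Vwf relative to the endothelial list ranged from -0.36 to 0.37. The causes were not tested.

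Mice with the same number are different animals, and their deviations from the group means correlated at -0.02 to 0.12, with 0 of 4 WT_SE mice correlating best with their own number. With the replicate block in mice 1, 2, 3 and 5, 1149 genes were called, against 1107 in the same mice without it (the same fit as without WT_EE mouse 4). The replicate block kept 4 higher genes and 1 lower gene of the 9, with 1 under the adjusted limit (F2r) and 1 pathway gene called (Anxa2).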
